A study of Mus musculus with 6 samples.

Results

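The genes described here are 38 chaperones, folding enzymes and stress regulators of the endoplasmic reticulum (ER), the cytosol and the mitochondria. They were taken by symbol: every probe set of the deposited table whose platform annotation names 1 gene, that gene being on the list. Of the 38 genes, 37 had at least 1 such probe set, out of 18193 genes named in the whole table, and Hsp90ab1 had none. The 37 genes were read by 90 probe sets, of which 80 in all 37 genes were bright enough to be tested. A probe set is a group of short oligonucleotides on the array that reports 1 transcript signal.

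Total RNA came from mouse embryonic stem cells (mESCs) of the mixed strain 129SV/C57BL/6, either wild type or knocked out for Setd2, with 3 arrays per genotype and no treatment. Setd2 is the enzyme that trimethylates histone H3 at lysine 36 along transcribed genes, and the design looked for deregulated genes needed for primitive endoderm differentiation. Cells of both genotypes had been grown on feeder cells, which were then depleted through attachment to gelatin and 1 passage without them. The labels call the arrays of a genotype biological repeats but do not say whether they came from separate clones or cultures, nor which part of Setd2 was deleted, so p-values measure the spread between these arrays. The values are log2 signals of MAS5, the Affymetrix summary method for probe sets.

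Several facts of the whole data set bear on the genes below. Setd2 itself (1428555_at) averaged 9.49 ± 0.12 on the knockout and 10.30 ± 0.01 on the wild type arrays (log2 signal ± SD, n = 3 each, limma adjusted p = 0.0272). Without 5 of the 6 arrays, each left out in turn, its adjusted p was 0.0704 or more, and without knockout replicate 1 it was 0.0230. The stem cell genes Pou5f1, Nanog and Sox2 read at or above 12.38 on all 6 arrays. The naive marker Zfp42 fell from 13.27 to 11.28 (limma adjusted p = 8.37e-05) and lies on chromosome 8, whose 709 tested genes had a median difference of -0.34 on the log2 scale against -0.03 to 0.04 on the other autosomes and X. The Y-linked gene Eif2s3y averaged 11.30 on the knockout arrays and 4.92 on the wild type arrays. A difference between genotypes and one between cell lines therefore cannot be told apart here. In bulk RNA, fewer cells of a type and less RNA per cell cannot be told apart either.

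The ER is where secreted and membrane proteins fold. When unfolded proteins build up there, the sensors Ern1 (IRE1), Atf6 and Eif2ak3 (PERK) set off the unfolded protein response: Ern1 splices the Xbp1 transcript, Atf6 is cut into an active transcription factor, and Eif2ak3 phosphorylates eIF2 alpha, which favours translation of Atf4. The resulting factors raise ER chaperones, ER degradation genes, and amino acid and apoptosis genes. Heat shock factors raise cytosolic and mitochondrial chaperones when proteins unfold in the cytosol. The array reads total Xbp1 signal at these probe sets and was not used to part spliced from unspliced Xbp1.

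Short sequence elements mark many of these genes, and they are shown first because each is known as a target of factors of these stress responses. The ER stress response element (ERSE) was searched as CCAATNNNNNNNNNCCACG on both strands of the 250 bases before each RefSeq start site (build GRCm38.p6). It is the element known to be bound by Atf6 and Xbp1 together with NF-Y. Promoter entries matched 32 of the 38 genes, all but Atf6, Hyou1, Hspa8, Manf, Hsp90aa1 and Hsp90ab1. The motif lay upstream of 8 of these 32 genes (25.0%), against 35 of 27025 genes in the table (0.130%); the list had been drawn up as genes of this response. The stretches below run 5′ to 3′ on the strand on which the motif reads forwards, with its fixed letters in capitals, and come from RefSeq.
Hspa5 (chr2:34772017-34772051, plus strand): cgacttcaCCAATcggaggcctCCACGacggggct
Hsp90b1 (chr10:86705525-86705559, plus strand): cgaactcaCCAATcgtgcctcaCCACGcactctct
Calr (chr8:84847067-84847101, plus strand): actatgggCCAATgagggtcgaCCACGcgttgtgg
Canx (chr11:50325792-50325826, minus strand): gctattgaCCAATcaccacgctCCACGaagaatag
Pdia6 (chr12:17266483-17266517, plus strand): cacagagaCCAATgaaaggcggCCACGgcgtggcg
Dnajc3 (chr14:118937819-118937853, plus strand): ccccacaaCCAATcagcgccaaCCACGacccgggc
Creld2 (chr15:88819512-88819546, minus strand): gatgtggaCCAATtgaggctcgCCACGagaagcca
Syvn1 (chr19:6046524-6046558, plus strand): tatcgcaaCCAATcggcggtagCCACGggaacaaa

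Hsp90b1 held a second match farther upstream. Matches began between 44 bases (Syvn1) and 212 bases (the farther one of Hsp90b1) before the start site. Herpud1 held the related ERSE-II, searched as ATTGGNCCACG, which 10 of 27025 genes hold (0.0370%). The amino acid response element bound by Atf4 (CARE), searched as TGATGNAA, lay upstream of Asns, Chac1 and Herpud1, and of 3.91% of all genes. A heat shock element of 3 units, GAANNTTCNNGAA, lay in the stretch shared by the neighbouring, oppositely transcribed genes Hspd1 and Hspe1, and in 0.514% of all genes. Its matches there overlap each other. The shorter pair GAANNTTC, part of the longer element and held by 7.73% of genes, also lay upstream of Dnaja1 and Hspa1b, and of Asns, where it overlapped the CARE. A match is a description of letters and not a binding site.
Herpud1, ERSE-II (chr8:94386369-94386395, plus strand): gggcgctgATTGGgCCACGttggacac
Herpud1, CARE (chr8:94386309-94386332, minus strand): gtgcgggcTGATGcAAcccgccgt
Asns, CARE (chr6:7693217-7693240, minus strand): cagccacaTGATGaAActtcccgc
Chac1, CARE (chr2:119351041-119351064, minus strand): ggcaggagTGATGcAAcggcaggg
Hspd1 and Hspe1, heat shock element (chr1:55088056-55088084, plus strand): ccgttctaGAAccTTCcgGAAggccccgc
Hspa1b, heat shock pair (chr17:34959327-34959350, minus strand): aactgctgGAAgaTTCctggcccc

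**Figure D1:**
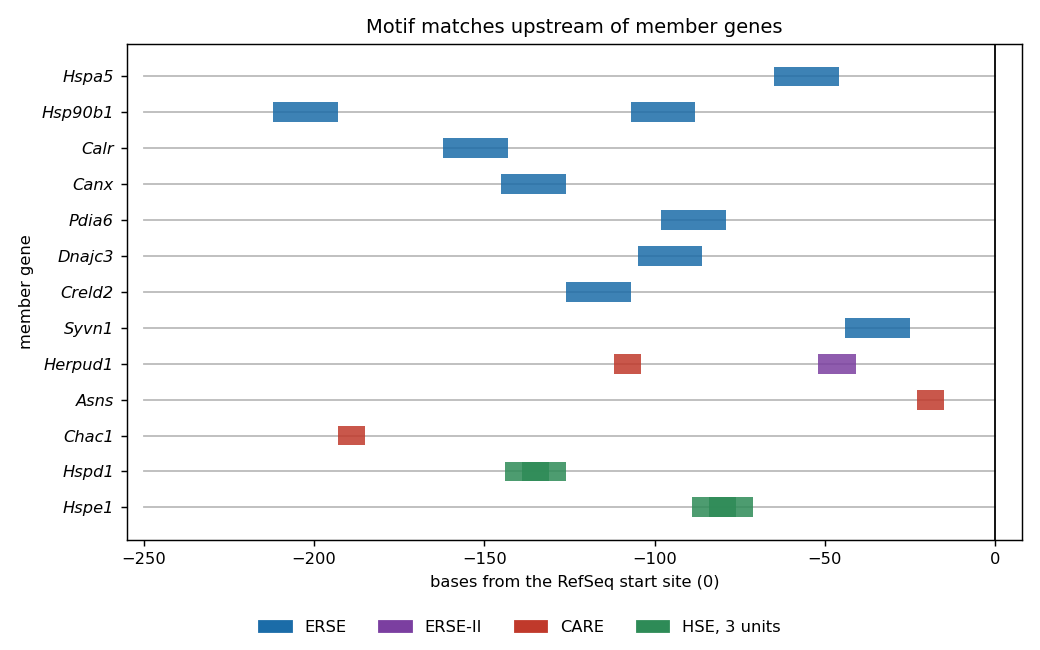
Motif matches in the 250 bases before the RefSeq start site (0 on the horizontal axis, in bases) of 13 member genes, 1 row per gene and 1 colour per motif. The ERSE matches of 8 genes spread over the window, with that of Syvn1 nearest to the start and the second one of Hsp90b1 farthest from it, and the 2 overlapping heat shock matches of Hspd1 and of Hspe1 are the same stretch seen from either gene.

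In the fit of genotype alone none of the 37 genes passed the threshold between wild type and Setd2 knockout cells, and the fitted differences at the brightest probe sets ran from -0.63 (Hspa1b) to 0.41 (Creld2) on the log2 scale. In that limma fit 0 of the 80 tested probe sets passed as higher and 0 as lower, against 0.274% and 0.374% (0.648% together) of all 27022 tested probe sets. The smallest adjusted p of any member was 0.124. An unadjusted p under 0.05 was reached by 11 of the 80 (13.8%), against 11.7% of all tested probe sets. At their brightest tested probe set, 18 genes had a difference above 0 and 19 below 0, with a median of -0.02 on the log2 scale beside 0.00 over all 12915 tested genes. The 95% interval of the difference lay within 0.5 of 0, a 1.41-fold change, for 22 of the 37 genes (59.5%). For all tested genes the share was 31.5%. The 2 shares were not matched for brightness: member means at these probe sets ran from 8.17 to 14.9, where the filter stood at 5.27. The fit lets the spread follow the signal, so the shares do not show that members changed less than other genes.

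The replicate numbers 1 to 3 are shared by both genotypes, and a fit with that number as a block moved the count. It called 8 of the 80 probe sets (10%), 1 higher and 7 lower, where it called 7.88% of all tested probe sets, 3.49% higher and 4.39% lower. The 8 belong to 5 genes: Xbp1, Calr, Hspa1b and Dnajb1 fell, and Creld2 rose. The genotypes did not overlap at 14 of the 80 probe sets (17.5%), with knockout arrays above at 2 and below at 12, against 18.1% of all tested probe sets, 9.16% above and 8.99% below. Without both arrays numbered 1, 7 of the 80 were called, against 7.52% of all tested probe sets. The shares of calls and of all probe sets without overlap were thus near the background. The probe sets without overlap lay more to the lower side, but they are not independent, and this lean was not tested. Of the 12 probe sets with every knockout array below, 5 belong to genes of chromosome 8. Xbp1, Calr, Dnajb1 and Hspa8 each gave more than 1 of the 12. On the other chromosomes 7 of the members' 73 tested probe sets had every knockout array below and 2 every one above. For these counts by chromosome no share over all probe sets was worked out, so they are not read as a lean of the members.

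**Figure D2:**
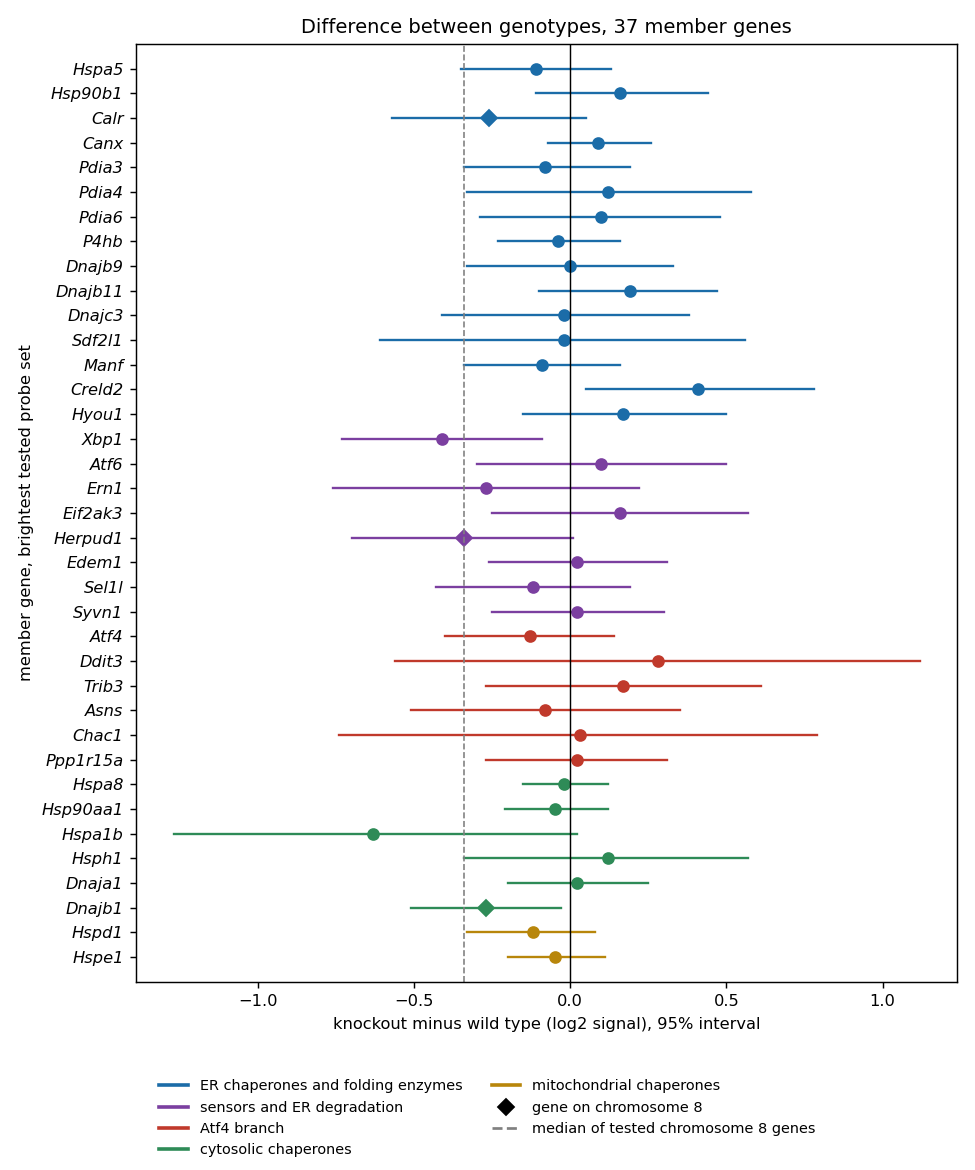
Knockout minus wild type difference of the log2 signal for each of the 37 genes at its brightest tested probe set, with the 95% interval of the limma fit without a block (3 arrays per genotype); colours give the gene group, diamonds mark genes on chromosome 8 and the dashed line is the median of the tested chromosome 8 genes. Most intervals span 0. Those of Creld2, Xbp1 and Dnajb1 do not, and the 3 chromosome 8 genes sit near the dashed line.

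Of the 3 sensors and the factors they act on, Xbp1 differed most. Xbp1 encodes the transcription factor that carries the Ern1 signal to ER chaperone and degradation genes. Its brightest probe set (1437223_s_at) read 12.24, 11.83 and 12.07 on wild type arrays 1 to 3 and 11.74, 11.41 and 11.76 on knockout arrays 1 to 3. Every knockout array lay below every wild type array. The signal was 1.33-fold lower, a difference of -0.41 ± 0.14 (SE) on the log2 scale (limma adjusted p = 0.295, and 0.00570 once blocked by replicate number). The probe set 1420886_a_at gave nearly the same difference, -0.39 ± 0.13 (adjusted p = 0.302, and 0.00848 with the block), again with no overlap between genotypes. The next, 1420011_s_at, differed by -0.32 without overlap and missed the threshold in both limma fits (adjusted p = 0.423 and 0.0672), and the dimmest, 1420012_at, differed by -0.11 (0.906 and 0.790). Within replicate numbers 1, 2 and 3 the difference at the brightest probe set was -0.50, -0.42 and -0.31. Without both arrays numbered 1, neither 1437223_s_at nor 1420886_a_at passed the threshold (limma adjusted p = 0.103 and 0.0833). Xbp1 lies on chromosome 11.

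The sensors themselves showed no call in either fit. Ern1 (1437119_at) differed by -0.27 with a 95% interval of -0.76 to 0.22, Atf6 (1435444_at) by 0.10 (-0.30 to 0.50) and Eif2ak3 (1449278_at) by 0.16 (-0.25 to 0.57). Eif2ak3 read 9.49, 9.21 and 9.31 on wild type and 9.83, 9.23 and 9.42 on knockout arrays, with array 1 the highest of either genotype. A dimmer Atf6 probe set (1456021_at) differed by -0.38 without overlap between genotypes (limma adjusted p = 0.428, and 0.161 with the block), so the probe sets of Atf6 had opposite signs. Ern1 on knockout arrays 2 and 3, at 7.85 and 7.76, lay below the other 4 arrays, which read 8.25 to 8.48, while knockout array 1 was the highest of the 6. The genotypes thus overlapped for Ern1.

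Of the ER degradation genes, Syvn1, Edem1 and Sel1l had close values in both genotypes. Syvn1, the ubiquitin ligase that tags unfolded ER proteins, read 9.66, 9.59 and 9.62 in wild type and 9.64, 9.57 and 9.73 in knockout cells (1443609_s_at). Edem1, which hands misfolded glycoproteins to degradation, read 9.38, 9.27 and 9.38 against 9.42, 9.27 and 9.40 (1451218_at). Both pairs of means differed by 0.02, with 95% intervals of -0.25 to 0.30 and -0.26 to 0.31. Sel1l, the partner that holds Syvn1 in place, differed by -0.12 (-0.43 to 0.19) at its brightest probe set. Wild type and knockout values overlapped for all 3 genes at these probe sets.

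Herpud1, a membrane protein of the same degradation complex and a carrier of both ERSE-II and CARE, was lower without a call. Its probe set 1448185_at read 8.78, 8.83 and 9.02 in wild type and 8.51, 8.71 and 8.38 in knockout cells, with no overlap. The difference was -0.34 ± 0.16 (limma adjusted p = 0.447, and 0.164 with the block). The second probe set, 1435626_a_at, differed by -0.43 and overlapped. Herpud1 lies on chromosome 8, where 48.4% of the tested genes had a lower difference than its first probe set.

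The lumenal chaperones of the ER form the largest group, with 15 genes and a median difference of 0.00. Hspa5 (BiP), the ER Hsp70 that also holds the sensors inactive, read 13.76, 13.61 and 13.75 on wild type arrays and 13.78, 13.39 and 13.63 on knockout arrays (1416064_a_at). Hsp90b1 (Grp94), the ER Hsp90, read 13.46, 13.11 and 13.34 against 13.68, 13.38 and 13.33 (1415889_a_at). The first differed by -0.11 (95% interval -0.35 to 0.13) and the second by 0.16 (-0.11 to 0.44), and both overlapped between genotypes. Neither was called in either fit, and both carry the ERSE shown above.

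The disulfide isomerases, which form and rearrange disulfide bonds, likewise gave no call. At the brightest probe set P4hb differed by -0.04 on the log2 scale, Pdia3 by -0.08, Pdia6 by 0.10 and Pdia4 by 0.12. Canx, the membrane-bound lectin chaperone, differed by 0.09 (95% interval -0.07 to 0.26). Its other probe sets lay clear of overlap in opposite directions, at 0.15 for 1422845_at and -0.15 for 1428935_at. Among the cochaperones and partners of Hspa5, Dnajb11 differed by 0.19, Dnajb9 by 0.00, Dnajc3 by -0.02 and Sdf2l1 by -0.02 at the brightest probe set. Dnajc3 had a dim probe set, 1419162_s_at, with the largest difference of all tested member probe sets: it read 6.23, 6.97 and 6.92 in wild type and 7.03, 7.33 and 7.72 in knockout cells. The genotypes did not overlap there, knockout arrays being the higher, and the difference of 0.66 ± 0.28 (SE) was not called (limma adjusted p = 0.418, and 0.0780 with the block). The other 3 dimmer Dnajc3 probe sets differed by 0.06 to 0.15 and overlapped. Hyou1, the ER exchange factor for Hspa5, differed by 0.17 at its brightest probe set and by 0.62 at the dimmer 1423290_at (limma adjusted p = 0.377, and 0.0567 with the block), but by -0.48 at the dimmest, 1451913_a_at (0.686, and 0.510 with the block). Manf, a secreted ER stress protein, differed by -0.09.

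Calr (calreticulin), the soluble calcium-binding lectin chaperone, was lower in knockout cells. Its probe set 1433806_x_at read 12.40, 12.40 and 12.50 in wild type and 12.18, 11.85 and 11.98 in knockout cells. No knockout array reached the lowest wild type array. The mean differed by -0.43 ± 0.10 (SE) on the log2 scale, a 1.35-fold lower signal (limma adjusted p = 0.124, and 0.00765 with the block). The probe set 1456170_x_at differed by -0.32 (0.302, and 0.0238 with the block), and the brightest, 1417606_a_at, by -0.26 (0.522, and 0.0897 with the block). The suffix _x_at marks probe sets whose probes may also bind other transcripts, and both probe sets called with the block are of that kind. Calr lies on chromosome 8. Of the chromosome's tested genes, 61.6%, 53.3% and 37% were lower than the Calr probe sets, from the brightest to the dimmest.

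Creld2 was higher in knockout cells. It encodes a secreted ER folding factor that is raised by ER stress, and carries the ERSE shown above. Its single probe set (1452754_at) read 11.00, 10.58 and 10.69 on wild type arrays 1 to 3 and 11.42, 10.95 and 11.13 on knockout arrays 1 to 3. Knockout array 2 lay just below wild type array 1, so the genotypes overlapped by those arrays. Within replicate numbers 1, 2 and 3 the knockout was higher by 0.43, 0.37 and 0.44. The mean difference was 0.41 ± 0.16 (SE), a 1.33-fold higher signal (limma adjusted p = 0.360, and 0.00836 once blocked).

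The 8 genes with an ERSE did not share a direction. Of these 8, 5 had a difference above 0 and 3 below, with a median of 0.06 and a range from -0.26 for Calr to 0.41 for Creld2. Another 27 genes of the promoter table carry the motif, and 7 of them were tested, with a median of -0.15. The highest of those 7 was Derl3, an ER degradation gene, at 0.66 ± 0.18 on the log2 scale (limma adjusted p = 0.179, and 0.0155 with the block).

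**Figure D3:**
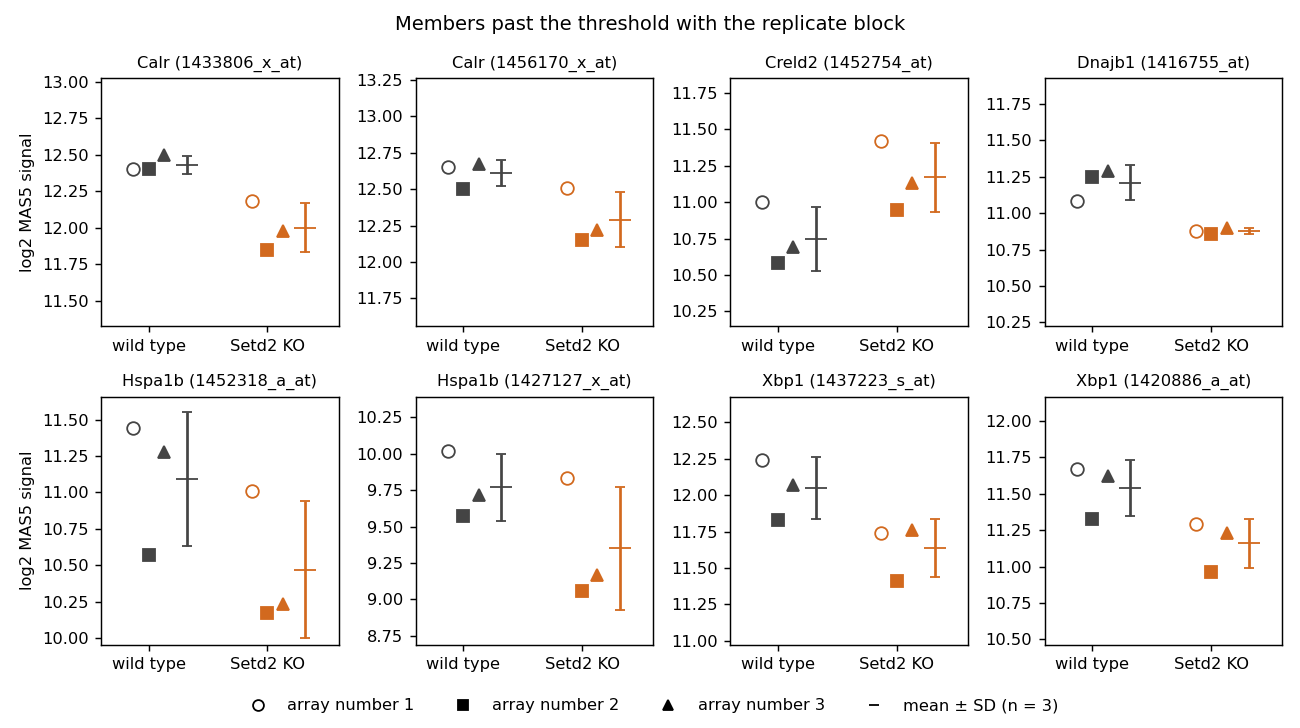
Log2 MAS5 signal on each of the 6 arrays for the 8 probe sets of 5 genes called in the fit with the replicate block, with the marker shape giving the replicate number and the bars the mean ± SD over the 3 arrays of a genotype; all panels span the same log2 range. For Xbp1, for Dnajb1 and for Calr at 1433806_x_at every knockout array lies below every wild type array, while for Creld2 and Hspa1b the genotypes overlap and the order holds within each number.

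The Atf4 branch, which raises amino acid supply and, when stress lasts, apoptosis genes, carried no call in either fit. Atf4 itself read 12.68, 13.03 and 12.95 in wild type and 12.60, 12.93 and 12.74 in knockout cells (1448135_at), a difference of -0.13 (95% interval -0.40 to 0.14). Asns, asparagine synthetase, read 13.17, 12.64 and 12.61 against 13.07, 12.61 and 12.49 (1451095_at), a difference of -0.08 (-0.51 to 0.35). At both genes array 1 of either genotype stood off from arrays 2 and 3, below them for Atf4 and above them for Asns. Ppp1r15a, the phosphatase subunit that ends the response, differed by 0.02 (-0.27 to 0.31).

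The other genes of the branch are dimmer, and Ddit3 and Chac1 also spread more widely. Ddit3 (CHOP), an apoptosis-promoting factor, read 8.72, 8.04 and 7.79 in wild type and 9.25, 8.21 and 7.93 in knockout cells (1417516_at). Its difference of 0.28 had an interval of -0.56 to 1.12. Chac1, a glutathione-degrading enzyme, read 8.79, 9.44 and 9.24 against 8.48, 9.88 and 9.18 (1451382_at), a difference of 0.03 (-0.74 to 0.79). Trib3, a pseudokinase that restrains the branch, differed by 0.17 (-0.27 to 0.61). For Ddit3 and Chac1 these arrays leave room for a change of more than 1.41-fold in either direction.

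Among the cytosolic chaperones Hspa8 and Hsp90aa1 had the brightest probe sets, and both overlapped between genotypes there. Hspa8, the constitutive Hsp70, read 14.91, 14.88 and 14.93 in wild type and 14.98, 14.78 and 14.91 in knockout cells (1455789_x_at). Hsp90aa1 read 14.78, 14.69 and 14.79 against 14.83, 14.57 and 14.71 (1438902_a_at). The differences were -0.02 (95% interval -0.15 to 0.12) and -0.05 (-0.21 to 0.12). Dnaja1, an Hsp70 cochaperone, differed by 0.02 and Hsph1 (Hsp110), an exchange factor for Hsp70, by 0.12, without a call.

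Hspa1b, the stress-inducible Hsp70, had the largest difference of the 37 genes at their brightest probe sets. At 1452318_a_at it read 11.44, 10.57 and 11.28 on wild type arrays 1 to 3 and 11.01, 10.17 and 10.23 on knockout arrays 1 to 3. Wild type array 2 lay among the knockout arrays, so the genotypes overlapped. The mean difference was -0.63 ± 0.28 (SE), a 1.54-fold lower signal (limma adjusted p = 0.441, and 0.0109 once blocked). Within numbers 1, 2 and 3 it was -0.43, -0.40 and -1.05. The other probe sets differed by -0.42 (1427127_x_at; 0.538, and 0.0421 with the block) and -0.43 (1427126_at; 0.540, and 0.0525 with the block). Hspa1b and Hspa1a are near-identical copies on chromosome 17, and probes may read both. The separate Hspa1a probe set (1452388_at) differed by -0.10 (95% interval -1.03 to 0.83).

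Dnajb1 (Hsp40), the cochaperone that works with inducible Hsp70, was lower at both probe sets. At 1416755_at it read 11.08, 11.25 and 11.29 in wild type and 10.88, 10.86 and 10.90 in knockout cells, and at 1416756_at it read 11.31, 11.22 and 11.27 against 11.15, 10.91 and 10.93. Neither probe set overlapped between genotypes. The differences were -0.33 ± 0.10 (limma adjusted p = 0.249, and 0.0304 with the block) and -0.27 ± 0.10 (0.362, and 0.0594 with the block). Dnajb1 lies on chromosome 8, and 51.5% and 60.9% of that chromosome's tested genes had a lower difference than these probe sets.

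The mitochondrial pair Hspd1 (Hsp60) and Hspe1 (Hsp10), which fold proteins together in the mitochondrial matrix, had close values in both genotypes. Hspd1 read 14.09, 14.32 and 14.33 in wild type and 14.00, 14.13 and 14.25 in knockout cells (1426351_at). Hspe1 read 13.89, 13.92 and 13.93 against 13.88, 13.76 and 13.96 (1450668_s_at). The differences were -0.12 (95% interval -0.33 to 0.08) and -0.05 (-0.20 to 0.11), and the second Hspe1 probe set differed by 0.17. No call was made in either fit.

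Members on chromosome 8 were lower in knockout cells, while those on other chromosomes went both ways. The 3 genes there, Calr, Herpud1 and Dnajb1, were lower at 7 of 7 tested probe sets, with a median over genes of -0.27 beside -0.34 for all 709 tested genes of the chromosome, of which 86.3% were below 0. With the block 3 of the 7 probe sets were called (42.9%), against 33.3% of all tested probe sets of the chromosome. The other 34 genes were split, 16 below 0 and 18 above, with a median of 0.01, beside 48.0% of genes below 0 on the other chromosomes. Of their 73 probe sets 5 were called with the block (6.85%), against 6.84% of tested probe sets of genes on other chromosomes. Both shares were near their background.

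Part of the spread between arrays went with array number, at a share of members near that of all tested genes. Both arrays numbered 1 lay outside the range of the other 4 at 13 of the 37 genes (35.1%), 8 above and 5 below, against 40.5% of all tested genes, 23.6% above and 16.9% below. This split was described after earlier results had shown it and was not tested. Hspa5, Hsp90b1, Pdia6, Dnajc3, Sdf2l1, Eif2ak3, Ddit3 and Asns were higher on the arrays numbered 1, and Atf4, Chac1, Dnaja1, Hsph1 and Hspd1 were lower. In the Atf4 branch 4 of 6 genes were split in this way, and not in 1 direction: Ddit3 averaged 8.99 on the arrays numbered 1 and 7.99 on the rest, and Chac1 8.64 and 9.43.

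Feeder cell markers moved with array number as well. Of 16 tested fibroblast markers, 9 were lower and 1 was higher on both arrays numbered 1. Their mean log2 signal was 7.59 and 7.49 on those arrays and 8.20 to 8.57 on the other 4. Their summed signal, raised from log2, ran from 10691 to 19232 in wild type and from 12756 to 18827 in knockout cells. The sum weighs the brightest markers most, and these went opposite ways. Fn1 averaged 12.73 on the arrays numbered 1 and 12.54 on the rest, and Acta2 10.72 and 12.49. Of the defining markers Col1a1 read 4.93 to 6.97 and Col1a2 7.56 to 9.42. None was listed at 0. Between genotypes 0 of the 16 passed the limma threshold, and 2 rose with the block, Fn1 and Pdgfrb, where 4.13% of all tested genes rose at their brightest probe set. Their part in the chaperone values was not tested.

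**Figure D4:**
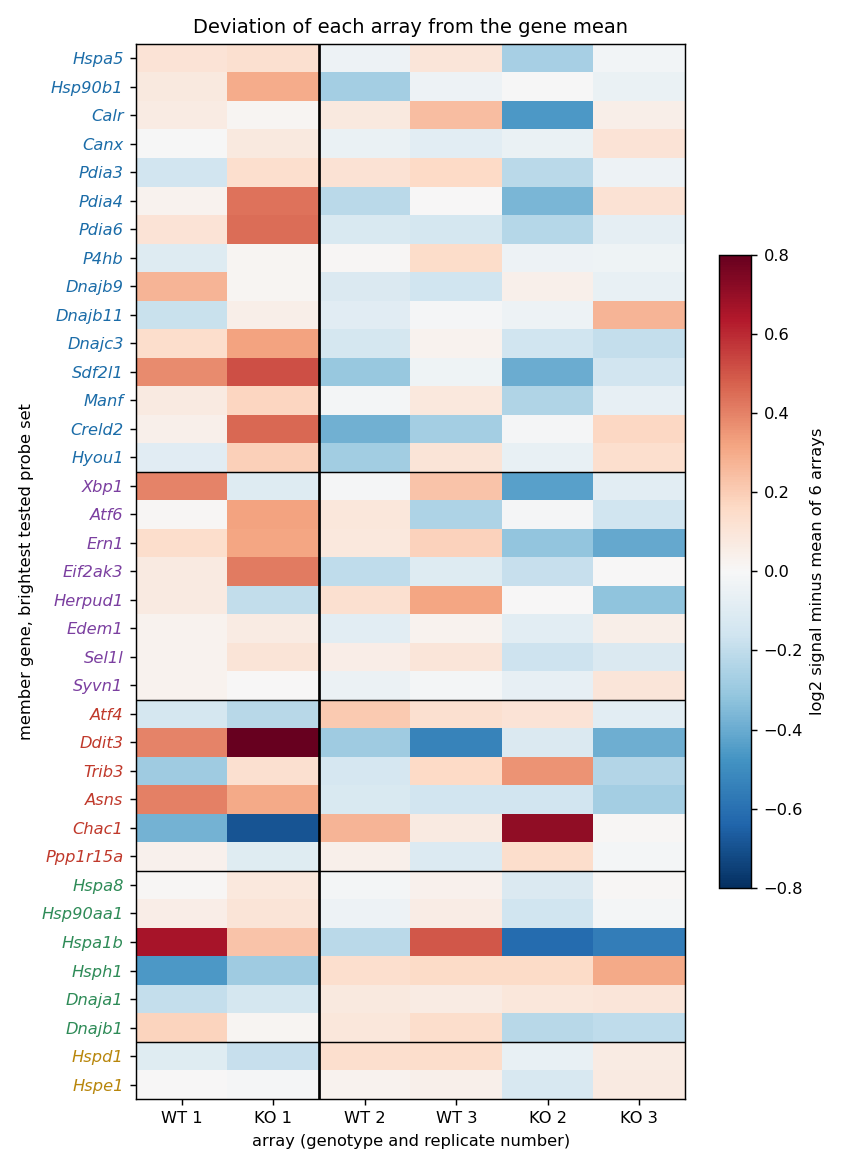
Deviation of each array from the mean of the 6 arrays (log2 signal, colour) for the 37 genes at their brightest tested probe set, with the arrays numbered 1 left of the line and gene names coloured by group. Ddit3, Asns and Sdf2l1 are high and Hsph1 and Chac1 low in both left columns, whatever the genotype, while Xbp1 is lower in each knockout array than in each wild type array.

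Probe sets of 1 gene often disagreed in sign. Of 25 genes with more than 1 tested probe set, 12 had differences on both sides of 0: Atf6, Canx, Dnaja1, Dnajc3, Edem1, Hsp90aa1, Hspa5, Hspa8, Hspe1, Hyou1, Pdia6 and Sel1l. The rest of these 25 genes were on 1 side of 0 at all their tested probe sets. Xbp1, Calr, Hspa1b, Dnajb1, Herpud1, Ern1, Atf4, Asns and Pdia3 were below 0, and Hsp90b1, Trib3, Hsph1 and Syvn1 above. No gene had probe sets called in opposite directions.

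Beyond the 37 genes, 3 lists of further pathway genes were followed, each gene at its brightest tested probe set. Read in that way, limma called 0.736% of all 12915 tested genes (0.256% higher and 0.480% lower), and 9.87% with the block (4.13% higher and 5.75% lower). Of 36 tested genes of ER folding and quality control, 0 were higher and 0 lower (median 0.02). With the block 5.56% were called, below the share of all genes, a difference that was not tested. Of these 1 rose, Derl3, and 1 fell, Mbtps1, the protease that makes the first cut in Atf6. Mbtps1 differed by -0.48 ± 0.10 (limma adjusted p = 0.0903, and 0.00372 with the block) and lies on chromosome 8.

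Of 28 tested genes of the integrated stress response 1 fell, Nupr1, a stress-induced chromatin protein known as a target of Atf4. Nupr1 (1419665_a_at) read 9.72, 9.70 and 9.73 on wild type and between 8.48 and 9.0 on knockout arrays, with no overlap. Its signal was 1.98-fold lower, -0.99 ± 0.16 (SE) on the log2 scale (limma adjusted p = 0.0397). It missed the threshold when wild type replicate 1, 2 or 3 was left out (0.0893, 0.206 and 0.251), or knockout replicate 2 or 3 (0.0685 and 0.147). The list median was -0.07. With the block 21.4% were called, above the share of all genes, a difference that was not tested: 1 rose, the phosphatase subunit Ppp1r15b (0.38), and 5 fell. Besides Nupr1 these were Aars (-0.50), which charges alanine tRNA, the folate enzymes Mthfd2 (-0.49) and Shmt2 (-0.31), and Eif4ebp1 (-0.22), a brake on translation. Aars and Eif4ebp1 lie on chromosome 8.

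Of 39 tested heat shock and other chaperone genes 0 were higher and 0 lower, and the median difference was -0.07. Blocked by number 7.69% were called, below the share of all genes, a difference that was not tested. All 3 fell: the collagen chaperone Serpinh1 by 0.59, the Hsp70 cochaperone Bag3 by 0.53 and the Hsp40 Dnaja2 by 0.23 on the log2 scale. Their limma adjusted p with the block was 0.00294, 0.0484 and 0.0244. Without the block their adjusted p was 0.153, 0.230 and 0.156. Dnaja2 lies on chromosome 8.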

How the data were processed

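RNA of 3 wild type and 3 Setd2 knockout mESC samples was hybridised to Affymetrix mouse genome arrays. The authors deposited log2 signals from MAS5, per the submitters' processing notes (version not given in the sources used here). Raised from log2, their means with 2% trimmed at each end were 497.0 to 497.3 on all arrays, so no pseudocount or further normalization was applied. For arrays, their number limits the precision. Genes came from the platform annotation, and the gene identifiers of 34741 probe sets matched RefSeq (GRCm38.p6), whose symbols were used.

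Probe sets with a mean under the 40th percentile (5.27) were left out, leaving 27022 of 45037. The members lost 10 of 90. The test was that of limma 3.58.1, run under R 4.3.3 (lmFit, eBayes with intensity trend, two-sided, Benjamini-Hochberg over all tested probe sets, threshold 0.05). Its code was checked on simulated data with independent arrays and planted changes larger than any tested member difference. That check does not cover changes as small as those of the members, nor spread shared by array number. Intervals are 95% and unadjusted.

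Deviations from genotype means correlated at 0.50, 0.23 and 0.24 between arrays of the same number (over 0.1 in all 3, across probe sets), and at -0.37 to 0.23 between unlike numbers. Values between unlike numbers thus reached up to those of numbers 2 and 3, and only number 1 stood apart. Deviations from a genotype mean cancel out over its arrays, which lowers the values between unlike numbers. The correlations therefore cannot decide whether the numbers are pairs, and the block was fitted only as an alternative. The labels do not say what they share.

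The members, gene lists and tests were chosen with earlier results of these data known. Every member is described by group. Per-array values are given for those called in either fit and for the 2 brightest others per group. Herpud1, Edem1, Ern1, Ddit3, Chac1 and a Dnajc3 probe set were added after their values were seen. Pathway genes are named where called in either fit, in 1 list beyond the rule of 4 per list. Hspa1a and the genes in the closing observations were chosen after their values were seen. Alternatives were the replicate block, quantile normalization, median centring, other filters, no trend, leaving out arrays, leaving out chromosomes 8 and Y, and averaging probe sets.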

Additional observations from a re-analysis of the deposited data

How the results depend on the processing

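With 0 member probe sets called in either direction, the count stayed at 0 under quantile normalization, centring on array medians, no filter on dim probe sets, a filter at the 60th percentile, no intensity trend, and after chromosomes 8 and Y were left out. With the replicate block 1 was higher and 7 were lower, and without both arrays numbered 1 the counts were 1 and 6, with Xbp1 no longer called (adjusted p = 0.103 and 0.0833) and both Dnajb1 probe sets called. Leaving out single arrays gave 0 higher, and 0 to 1 lower: without knockout replicate 1, Calr 1433806_x_at passed (0.0317). The block and the fit without number 1 also raised the counts over all probe sets, from 74 higher and 101 lower to 944 and 1185, and to 919 and 1114, and single arrays left out gave 17 to 158 higher and 14 to 273 lower. Without the trend the counts were 30 and 27, and without chromosomes 8 and Y 63 and 64. The cause was not tested. The group medians of the difference moved by less than the spread between arrays under each of these settings and with all probe sets of a gene averaged. Outside the blocked fit, Xbp1 1437223_s_at ranged from -0.52 to -0.30, Calr 1433806_x_at from -0.54 to -0.36, Creld2 from 0.28 to 0.53, Hspa1b 1452318_a_at from -0.90 to -0.45 and Dnajb1 1416755_at from -0.39 to -0.28. Nupr1 lost its call without the intensity trend (0.110) and Setd2 likewise (0.0916).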

Other observations

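The list of further ER folding genes was split by array number more often upwards than the background. Of its 36 tested genes 16 (44.4%) were higher on both arrays numbered 1 than on the other 4 and 4 (11.1%) were lower, against 23.6% and 16.9% of all tested genes. The split ran through both genotypes and was not tested. Ero1b, an oxidase that recharges disulfide isomerases, averaged 1.17 higher on the arrays numbered 1 on the log2 scale, Wfs1 0.69, Edem2 0.57 and Fkbp2 0.52.

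In the integrated stress response list 8 of 28 genes were higher (28.6%) and 7 were lower (25.0%) on the arrays numbered 1. Ddit4, a stress-induced inhibitor of growth signalling, read 12.61 (wild type) and 12.81 (knockout) on the arrays numbered 1 and 11.64 to 11.94 on the others. Stc2, a secreted glycoprotein raised by ER stress, read 6.03 and 5.91 against 7.25 to 8.23. The amino acid transporter gene Slc7a3 read 11.57 and 11.30 against 12.29 to 12.48. These genes were chosen after their values were seen.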
